A study of Caenorhabditis elegans with 9 samples.

Results

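The response of Caenorhabditis elegans to the lower of 2 sodium arsenite doses is described here, as the comparison of 3 arrays of worms kept in 0.003% (w/v) sodium arsenite with 3 arrays of control worms. These are 6 of the 9 Affymetrix C. elegans arrays of the study, and the other 3 hold worms kept in 0.03% (w/v). Every gene with a probeset assigned to it alone was taken, with the probeset of highest mean over the 9 arrays where there were several, which gave 17118 genes, all of which were tested without a filter on low values. All worms were of the wild type strain N2, hatched from bleached eggs, held for 6 h at 22 °C in CeHM, a liquid medium without bacteria, and had their RNA taken from whole worms. The labels give the stage as L3, the methods as L1 and the results as L4. The samples are labelled biological replicates, and the methods of the paper state 3 independent RNA isolations per condition. Neither says that the worms came from separate cultures. The p-values reflect a spread from array to array that may be technical, including that of RNA isolation. In whole worms, fewer cells of a type and less RNA per cell cannot be told apart.

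Arsenite binds to the sulfur of thiols, among them glutathione and the cysteines of proteins. Worms meet such compounds with enzymes that couple them to glutathione or sugars, with pumps that carry the products out of the cell, with enzymes that make and reduce glutathione, and with chaperones and the proteasome for damaged proteins. In C. elegans the factor SKN-1, held down by WDR-23, drives much of the first group, and HSF-1 drives the heat shock genes.

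The deposited values are signals on the log2 scale, so a difference of 1 stands for a 2-fold change. Medians of the 9 arrays were 8.42 to 8.52, and within a group the correlation of arrays over genes (not independent replicates) was 0.940 to 0.952. The actin, Gapdh and ubiquitin control probesets differed between the low dose and control means by -0.10 to 0.20, without a test. A gene is called up or down regulated where limma, fitted over all 9 arrays, gave a change of at least 1.2 fold with a Benjamini-Hochberg adjusted p of at most 0.05, and every adjusted p below is from that model. A gene is called dim where its lower group mean is below 6.26, the level that parts off the dimmest 25% of genes. Each call was also read in 9 further fits, each without 1 array, and the number of these fits in which a call was lost is given in the account of its gene or list. Probesets marked _s_at or _x_at can detect related transcripts. The gene lists below were drawn up with earlier results of these data known, so their counts are a description.

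Low dose arsenite raised more genes than it lowered, and the median change of the raised genes was the larger. Of 17118 genes, 266 (1.55%) passed the test, 179 up regulated (1.05%) and 87 down regulated (0.508%). The increases ran from 1.47 to 39.6 fold with a median of 2.65 fold, and 57 genes rose at least 4 fold, 19 of these at least 8 fold. The decreases ran from 1.49 to 13.2 fold with a median of 2.19 fold, and 15 genes fell at least 4 fold, of which 3 fell at least 8 fold. The low dose and control arrays did not overlap for any of the 266 genes, while this was so for 3116 of all genes (18.2%). The median log2 fold change over all genes was -0.01, and at an unadjusted p under 0.05 there were 1003 higher (5.86%) and 1007 lower genes (5.88%). Without 1 array the up regulated genes numbered 122 to 154 and the down regulated genes 34 to 75. The down regulated count fell by more than 1.5 times without control replicate 1 (49), 2 (34) or 3 (37) and without low dose replicate 1 (43), 2 (52) or 3 (48). In the fits without 1 array, 107 of the 179 increases and 24 of the 87 decreases passed each time.

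**Figure D1:**
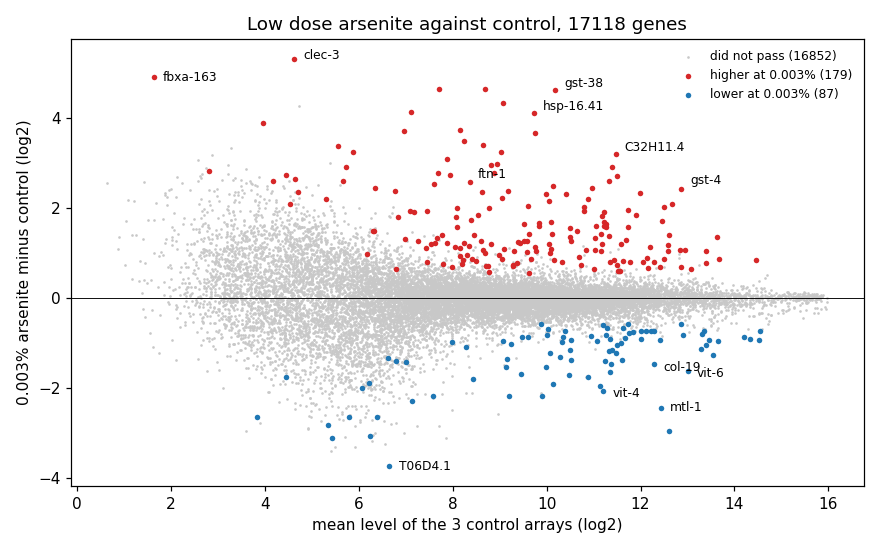
Mean level of the 3 control arrays (log2, x axis) against the difference between 0.003% arsenite and control (log2, y axis), 1 point per gene, with the 179 up regulated genes in red, the 87 down regulated genes in blue and the other genes in grey. The increases reach 5.31 and the decreases -3.72, and the grey points spread most widely at low control levels.

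The largest increase was that of clec-3, a C-type lectin gene. It stood at 4.80, 3.63 and 5.44 on the control arrays and at 9.84, 9.96 and 9.98 on the low dose arrays (39.6 fold, log2 fold change 5.31, SE 0.40, adjusted p = 6.34e-04). The dim control values span 1.81 units while the low dose values lie within 0.14 of each other, so the fold rests on a loosely measured control level. The F-box gene fbxa-163, also dim, followed at 0.56, 2.50 and 1.85 in control and 6.63, 6.86 and 6.16 at the low dose. Among genes that were not dim, W06H8.2 rose most, from 8.76, 8.495 and 8.79 to 13.39, 13.48 and 13.13 (25.2 fold, SE 0.14, adjusted p = 1.29e-05), with a gap of 4.34 between the groups. T19D12.3 went from 6.98, 7.46 and 6.91 to 10.95, 11.61 and 11.20 (17.6 fold, SE 0.21, adjusted p = 9.16e-05). No role is given for these last 2 genes in the sources used here.

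Enzymes that couple foreign compounds to glutathione or to sugars were among the increases. Among 45 measured glutathione S-transferase genes there were 18 increases and 0 decreases (24 and 4 at an unadjusted p under 0.05), with a median log2 fold change of 0.57 against -0.01 over all genes. The 18 increases ran from 1.07 for gst-10 to 4.64 for gst-30. The level of gst-30 was 7.45, 7.47 and 8.21 in control and 12.32, 12.45 and 12.27 at the low dose, and its arrays at 0.03% lay higher again at 14.45, 14.50 and 14.30. The gene gst-5 rose from 11.21, 11.56 and 11.39 to 14.26, 14.47 and 14.19 (7.56 fold, SE 0.13, adjusted p = 5.96e-05), a close set of arrays in both groups. The omega class gene gsto-2, dim in control at 5.19, 3.95 and 4.79, stood at 7.57, 7.06 and 7.21 at the low dose (6.22 fold, SE 0.31, adjusted p = 0.00683). Without 1 array the family count of increases was 16 to 18.

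The UDP-glucuronosyltransferases, which attach sugars, gave 8 increases and 1 decrease among 64 measured genes, with a median of 0.16. The gene ugt-13 rose from 7.59, 7.67 and 7.79 to 10.34, 10.76 and 10.32 (6.89 fold, SE 0.15, adjusted p = 1.12e-04) and ugt-10 from 6.48, 6.76 and 7.09 to 8.85, 9.02 and 9.57 (5.18 fold, SE 0.22, adjusted p = 0.00230). The third, ugt-48, was higher at the low dose, at 12.14, 12.37 and 12.14, than in control at 10.16, 10.15 and 9.86 and than at 0.03% at 11.70, 11.61 and 11.76. The single decrease was that of ugt-6 (log2 fold change -0.66), whose call was lost in 8 of the 9 fits without 1 array. Of 51 short-chain, alcohol and aldehyde dehydrogenase genes, 5 rose and 1 fell. The leading one, dhs-8, was dim at 4.24, 6.59 and 5.82 in control and reached 8.98, 8.97 and 8.85 (10.4 fold, SE 0.54, adjusted p = 0.0276), and its call was lost in 7 of 9 fits, adjusted p up to 0.104. The gene sdz-8 rose from 11.46, 11.46 and 11.56 to 14.22, 14.25 and 14.13 (6.53 fold, SE 0.11, adjusted p = 3.17e-05). Of 73 cytochrome P450 genes, the oxidases of the first step of detoxification, 0 rose (1.05% of all genes) and 2 fell (0.508%). These were cyp-25A2, at 11.42, 11.45 and 11.53 in control and 10.07, 10.36 and 10.35 at the low dose, and cyp-29A2, at 11.33, 11.42 and 11.23 and 10.07, 10.06 and 10.36. At an unadjusted p under 0.05 the P450 genes gave 5 higher and 6 lower (5.86% and 5.88% of all genes). The absence of increases does not set this family apart from all genes. The call of cyp-25A2 was lost in 6 of 9 fits, adjusted p up to 0.0941. The dehydrogenase count of 5 was 2 to 4 in the fits without 1 array, at 4 without control replicate 1, at 2 without control replicate 3 or low dose replicate 1 and at 3 in the other fits.

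Among 55 ABC transporter genes, which encode ATP-driven pumps, 5 were up regulated and 0 down regulated. The multidrug resistance related gene mrp-7 rose from 8.60, 8.03 and 7.66 to 10.32, 9.78 and 10.22 (4.02 fold, SE 0.25, adjusted p = 0.00910) on an _s_at probeset. The transporter gene hmt-1, required in C. elegans for tolerance of heavy metals, rose from 9.91, 9.99 and 10.34 to 11.09, 11.15 and 11.001 (2.00 fold, SE 0.15, adjusted p = 0.0196) and stood at 13.20, 13.02 and 13.33 at 0.03%, and its call was lost in 5 of 9 fits, adjusted p up to 0.0841. The P-glycoprotein gene pgp-1 rose at the low dose and is taken up again with the dose comparison. The increases of pgp-4 and mrp-3 were 0.72 and 0.58 on the log2 scale, mrp-3 being chosen after its values were seen, and their calls were lost in 8 and 9 of the 9 fits (adjusted p up to 0.125 and 0.159). Without 1 array the transporter count was 1 to 5. It was 1 without control replicate 1 or 2 or any 1 of the low dose replicates, 2 without control replicate 3 and 3 without replicate 1 or 2 of 0.03%. The gene mrp-7 passed in all 9 of those fits, but not in a fit of the control and low dose arrays alone.

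Some genes of glutathione synthesis and NADPH supply rose at the low dose. In the list of glutathione synthesis and NADPH supply, 5 of 12 genes rose, by 1.52 to 4.94 fold, and 0 fell, with a median of 0.33. The nitrilase gene nit-1 rose from 10.56, 10.43 and 10.24 to 12.73, 12.95 and 12.47 (4.94 fold, SE 0.15, adjusted p = 2.77e-04). The glutathione reductase gene gsr-1 stood at 13.60, 13.69 and 13.73 in control and 14.68, 14.49 and 14.47 at the low dose (1.83 fold, SE 0.11, adjusted p = 0.00989), and the glutathione synthetase gene gss-1 at 11.33, 11.39 and 11.34 and 11.99, 12.32 and 12.14 (1.74 fold, SE 0.13, adjusted p = 0.0262). The gap between the groups was 0.74 for gsr-1 and 0.59 for gss-1. The gene gclm-1, which encodes the modifier subunit of the enzyme whose catalytic subunit is GCS-1, was no member of that list and was chosen after its values were seen. It rose from 11.01, 11.21 and 11.26 to 12.54, 12.78 and 12.45 (2.69 fold, SE 0.15, adjusted p = 0.00400), beside 3.23 fold (SE 0.14, adjusted p = 0.00129) for gcs-1. The glucose-6-phosphate dehydrogenase gene gspd-1, a source of NADPH also chosen after its values were seen, moved from 11.58, 11.58 and 11.55 to 12.20, 12.15 and 12.17 (1.52 fold, SE 0.09, adjusted p = 0.0184). The call of gss-1 was lost in 7 of 9 fits, adjusted p up to 0.107, and that of gspd-1 in 6 of 9 fits, adjusted p up to 0.0860. The count of 5 was 3 without any 1 of the control replicates and without low dose replicate 2 or 3.

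Sulfur and thiol genes moved in both directions. In the list of transsulfuration and sulfide genes, 2 of 18 rose and 1 fell, and the 2 increases were 1 without any 1 of the control replicates, low dose replicate 2 or 3 or replicate 2 of 0.03%. The cystathionine beta-lyase gene cbl-1 rose from 10.95, 10.77 and 10.69 to 12.94, 12.80 and 12.73 (4.06 fold, SE 0.11, adjusted p = 1.26e-04) and lay at 12.83, 12.80 and 12.80 at 0.03%, inside the range of the low dose arrays. The sulfide:quinone oxidoreductase gene sqrd-1, which starts the oxidation of hydrogen sulfide in mitochondria, fell from 11.55, 11.70 and 11.77 to 10.70, 10.86 and 10.77 (SE 0.11, adjusted p = 0.00830). Of 29 superoxide, peroxide and thiol repair genes, 2 rose and 0 fell (7 and 3 at an unadjusted p under 0.05). One was msra-1, for the enzyme that reduces oxidized methionine, from 11.32, 11.48 and 11.20 to 14.03, 13.97 and 13.80 (6.06 fold, SE 0.12, adjusted p = 5.96e-05). The other was the glutaredoxin gene glrx-10, from 12.65, 12.85 and 13.33 to 13.91, 14.15 and 13.94 (2.08 fold, SE 0.18, adjusted p = 0.0357), whose call was lost in 8 of 9 fits, adjusted p up to 0.133. The superoxide dismutase gene sod-3 did not pass, at 8.31, 8.07 and 8.47 in control and 7.64, 8.63 and 8.62 at the low dose, and its arrays overlapped.

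Genes that handle iron and other metals gave few calls of large size. Of 15 genes of iron storage and transport, 2 rose and 0 fell. The ferritin gene ftn-1 stood at 8.23, 8.35 and 8.56 in control, 10.89, 10.98 and 10.99 at the low dose and 14.51, 14.46 and 14.57 at 0.03%, so the arrays formed 3 separate steps (5.96 fold at the low dose, SE 0.12, adjusted p = 5.96e-05). The ferroportin gene fpn-1.1, whose product exports iron, rose from 9.57, 9.60 and 9.68 to 11.32, 10.89 and 10.90 (2.68 fold, SE 0.14, adjusted p = 0.00263). The second ferritin gene ftn-2 had 14.19, 14.26 and 14.06 in control and 14.30, 14.46 and 14.36 at the low dose, and did not pass (log2 fold change 0.21, adjusted p = 0.515). Among 8 metallothionein and cdr genes, mtl-1 was down regulated (log2 fold change -2.44, SE 0.13, adjusted p = 1.10e-04) and cdr-4, a gene first known for its response to cadmium, rose from 11.08, 10.83 and 10.74 to 13.02, 13.23 and 13.01 (4.60 fold, SE 0.13, adjusted p = 1.95e-04). The other metallothionein gene, mtl-2, did not pass (log2 fold change -0.44, SE 0.11, adjusted p = 0.137), though its arrays were apart at 15.40, 15.46 and 15.51 against 15.09, 15.03 and 14.93.

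Aquaglyceroporins let arsenite enter cells in several organisms. In the list of 11 aquaporin and arsenite handling genes, aqp-11 rose from 11.11, 11.06 and 10.91 to 11.82, 12.29 and 12.15 (SE 0.18, adjusted p = 0.0343) and the aquaglyceroporin gene aqp-1 fell from 11.74, 11.88 and 11.65 to 10.92, 11.20 and 10.81 (SE 0.14, adjusted p = 0.0497). Both sets of arrays were apart, but the call of aqp-11 was lost in 7 of 9 fits, adjusted p up to 0.134, and that of aqp-1 in 9 of 9 fits, adjusted p up to 0.164. Of 17 zinc transporter genes, 0 passed (1.55% of all genes), with 1 higher and 2 lower at an unadjusted p under 0.05.

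**Figure D2:**
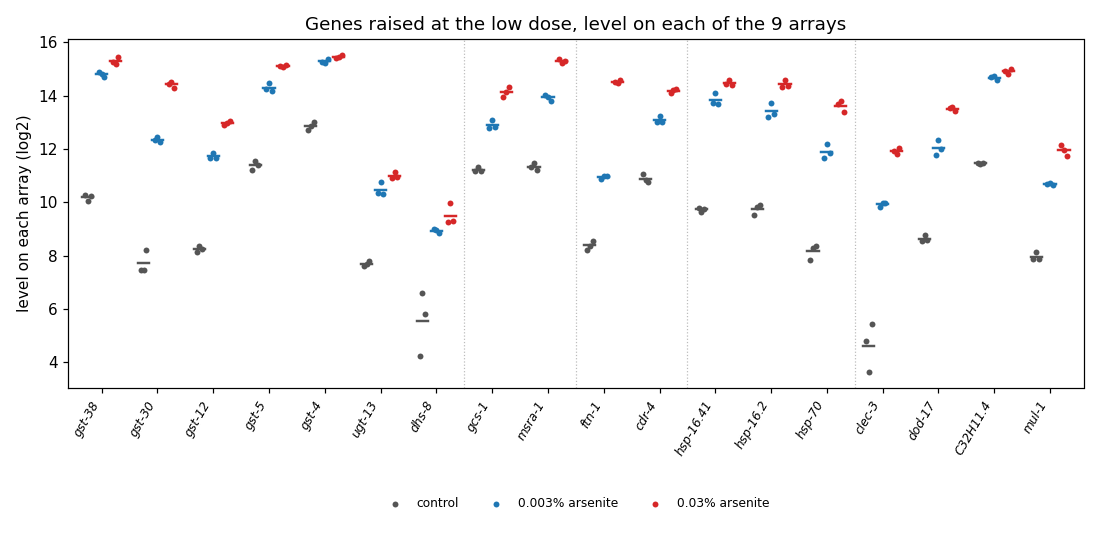
Level on each of the 9 arrays (log2, y axis) of 18 genes up regulated at the low dose, with points for arrays, short lines for group means and dotted lines between conjugating enzymes, glutathione and methionine repair genes, metal genes, heat shock genes and infection-response genes. For each gene the 3 low dose arrays lie above the 3 control arrays, as for ftn-1 at 10.89 to 10.99 against 8.23 to 8.56.

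Heat shock genes of the small and HSP70 classes rose at the low dose. Of 12 small heat shock protein genes, hsp-16.41 and hsp-16.2 were up regulated and 0 were down regulated (4 and 1 at an unadjusted p under 0.05), with a list median of 0.11. The level of hsp-16.41 was 9.79, 9.63 and 9.76 in control and 13.71, 14.12 and 13.67 at the low dose (17.2 fold, SE 0.15, adjusted p = 1.87e-05), and that of hsp-16.2 was 9.51, 9.81 and 9.92 and 13.19, 13.71 and 13.32 (12.7 fold). These genes are neighbours with similar sequences. The probesets shared by hsp-16.1 and hsp-16.11, by hsp-16.48 and hsp-16.49, and by F44E5.4 and F44E5.5 of the HSP70 class are not assigned to a single gene and did not enter these counts. Of the 12 HSP70 and HSP90 genes measured, with 3 listed genes not measured, the inducible hsp-70 passed, from 7.84, 8.30 and 8.35 to 11.67, 12.19 and 11.83 on an _s_at probeset (13.3 fold, SE 0.20, adjusted p = 1.14e-04). Of 40 DnaJ and chaperonin genes, 18 genes of the endoplasmic reticulum stress response and 11 of the mitochondrial stress response, 0 passed (1.55% of all genes). At an unadjusted p under 0.05 these lists had 5, 2 and 2 higher and 1, 0 and 0 lower. The endoplasmic reticulum chaperone gene hsp-4 had 12.70, 12.73 and 12.78 in control and 12.89, 12.76 and 12.85 at the low dose, and the mitochondrial hsp-6 had 13.08, 13.21 and 13.09 and 13.37, 13.41 and 13.21 (log2 fold changes 0.10, adjusted p = 0.771, and 0.20, adjusted p = 0.509).

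Most proteasome genes had a slightly higher mean at the low dose. Of 33 subunit genes, 32 had a higher mean at the low dose, 20 were higher at an unadjusted p under 0.05, and only pbs-5 passed after adjustment. The median log2 fold change was 0.30 at the low dose and 0.71 at 0.03%, where 30 of the 33 were up regulated (9% of all genes were up regulated there). The gene pbs-5, for a catalytic subunit, stood at 13.16, 13.14 and 12.94 in control, 13.77, 13.65 and 13.77 at the low dose and 13.87, 13.98 and 13.89 at 0.03% (log2 fold change 0.65 at the low dose, SE 0.11, adjusted p = 0.0309), and the call at the low dose was lost in 9 of 9 fits, adjusted p up to 0.115. Of 30 autophagy genes, the cargo receptor gene sqst-1 alone passed, from 12.05, 12.15 and 11.96 to 12.77, 13.06 and 12.76 (SE 0.14, adjusted p = 0.0357), on an _x_at probeset and with its call lost in 8 of 9 fits, adjusted p up to 0.143.

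Some genes known from responses to pathogens rose in this medium without bacteria. In a list of 48 CUB-like and infection-response genes, 11 were up regulated and 0 down regulated (1.05% and 0.508% of all genes). At an unadjusted p under 0.05, 22 were higher and 3 lower, and the median was 0.57. The list was drawn up with earlier results of these data known, so its counts are no result about the class. The gene dod-17 rose from 8.53, 8.78 and 8.60 to 11.78, 12.35 and 12.01 (10.6 fold, SE 0.16, adjusted p = 7.34e-05), and C32H11.4 from 11.49, 11.45 and 11.47 to 14.69, 14.73 and 14.60 (9.23 fold, SE 0.10, adjusted p = 1.29e-05), its control arrays lying within 0.04 of each other. The infection-response gene irg-6, chosen after its values were seen, was higher at the low dose, at 9.16, 8.70 and 8.56, than in control at 5.91, 6.73 and 6.41 or at 0.03% at 7.64, 7.61 and 6.92. Without 1 array the count of increases in this list was 9 to 12. Among 220 C-type lectin genes, 8 rose and 0 fell (26 and 12 at an unadjusted p under 0.05), with a median of 0.02. After clec-3 the largest of these was clec-9, from 6.10, 7.29 and 7.51 to 10.68, 10.81 and 10.57 (13.2 fold, SE 0.34, adjusted p = 0.00203), its arrays at 0.03% being 10.59, 10.48 and 10.81. Without 1 array the lectin count was 5 to 7, at 5 without control replicate 2 or low dose replicate 1 or 2. Of 34 lysozyme and saposin-like genes and 34 genes of antimicrobial peptides, 0 passed (1.55% of all genes). At an unadjusted p under 0.05 there were 4 higher and 5 lower in the first list and 4 higher and 0 lower in the second.

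Peptidase genes formed a further group, in a list added after the values were seen. Of 63 cathepsin, carboxypeptidase and neprilysin type genes, 6 rose and 1 fell. The lysosomal carboxypeptidase type gene pcp-2 rose from 11.68, 11.79 and 11.74 to 13.08, 13.65 and 13.24 (3.00 fold, SE 0.15, adjusted p = 0.00263) and was at 12.40, 12.40 and 12.48 at 0.03%, below the low dose arrays. The genes ctsa-4.1, ctsa-4.2, asp-14, pcp-3 and nep-22 rose by 1.23, 1.203, 0.84, 0.82 and 0.66 on the log2 scale, and cpr-4, of the cathepsin B type, fell by 0.92 on the log2 scale. The calls of pcp-3, nep-22 and cpr-4 were lost in 8, 9 and 7 of the 9 fits without 1 array, with adjusted p up to 0.129, 0.129 and 0.132. In a second added list of 11 genes of tetrahydrobiopterin and monoamine synthesis, cat-4 and ptps-1 rose and 0 fell. Both act in the synthesis of the cofactor tetrahydrobiopterin from GTP, cat-4 as GTP cyclohydrolase. The level of cat-4 was 12.65, 12.74 and 12.44 in control and 13.90, 14.23 and 13.91 at the low dose (2.65 fold, SE 0.14, adjusted p = 0.00252), and that of ptps-1 was 10.53, 10.61 and 10.35 and 11.88, 11.88 and 11.82 (2.57 fold, SE 0.11, adjusted p = 8.26e-04). Both calls held in the 9 fits without 1 array.

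Large gene families gave few calls, and 1.55% of all genes were called. The called shares were 1.97% for nuclear hormone receptors, 2.26% for F-box genes and 0.528% for chemoreceptors. Of 254 nuclear hormone receptor genes, 4 rose and 1 fell, and of 310 F-box genes, 5 rose and 2 fell. The receptor gene nhr-182 rose from 7.91, 8.66 and 8.83 to 9.95, 9.82 and 9.85 (2.66 fold, SE 0.23, adjusted p = 0.0288), with its call lost in 7 of 9 fits, adjusted p up to 0.105. The single decrease, nhr-269, was dim, at 5.59, 6.18 and 4.53 in control and 2.96, 1.96 and 2.08 at the low dose, and its call was lost in 7 of 9 fits, adjusted p up to 0.159. Of 1325 chemoreceptor genes, in an added list, 3 rose and 4 fell. Dim genes made up 1123 of the chemoreceptor genes, 193 of the F-box genes and 86 of the nuclear hormone receptor genes. With 1 array left out, the receptor increases were 1 to 3. They were 1 without control replicate 1 or 3 or low dose replicate 1 or 2. They were 2 without low dose replicate 3 or any 1 array of 0.03%, and 0 with control and low dose arrays alone. The F-box increases were 2 to 4 with 1 array left out. They were 2 without low dose replicate 1 or 2 or replicate 1 or 3 of 0.03%, and 3 without low dose replicate 3 or any 1 control array. The F-box decreases were 1 or 2 (1 without control replicate 1 or 2, low dose replicate 1 or replicate 1 or 3 of 0.03%). The chemoreceptor increases became 5 when control replicate 1 was left out and 1 when low dose replicate 2 was, and the decreases were 2 without control replicate 1 or 3 or low dose replicate 2. Of 29 stress regulators, 1 rose, the repressor gene wdr-23, from 9.80, 9.42 and 9.50 to 10.68, 10.35 and 10.75 (2.02 fold, SE 0.16, adjusted p = 0.0253), with its call lost in 6 of 9 fits, adjusted p up to 0.107. The transcript of skn-1 itself had 10.80, 11.36 and 11.74 in control and 11.29, 11.76 and 11.27 at the low dose, overlapping values with a log2 fold change of 0.14 (adjusted p = 0.889), and those of hsf-1 and daf-16 differed by 0.32 and -0.26 (adjusted p = 0.648 and 0.670).

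**Figure D3:**
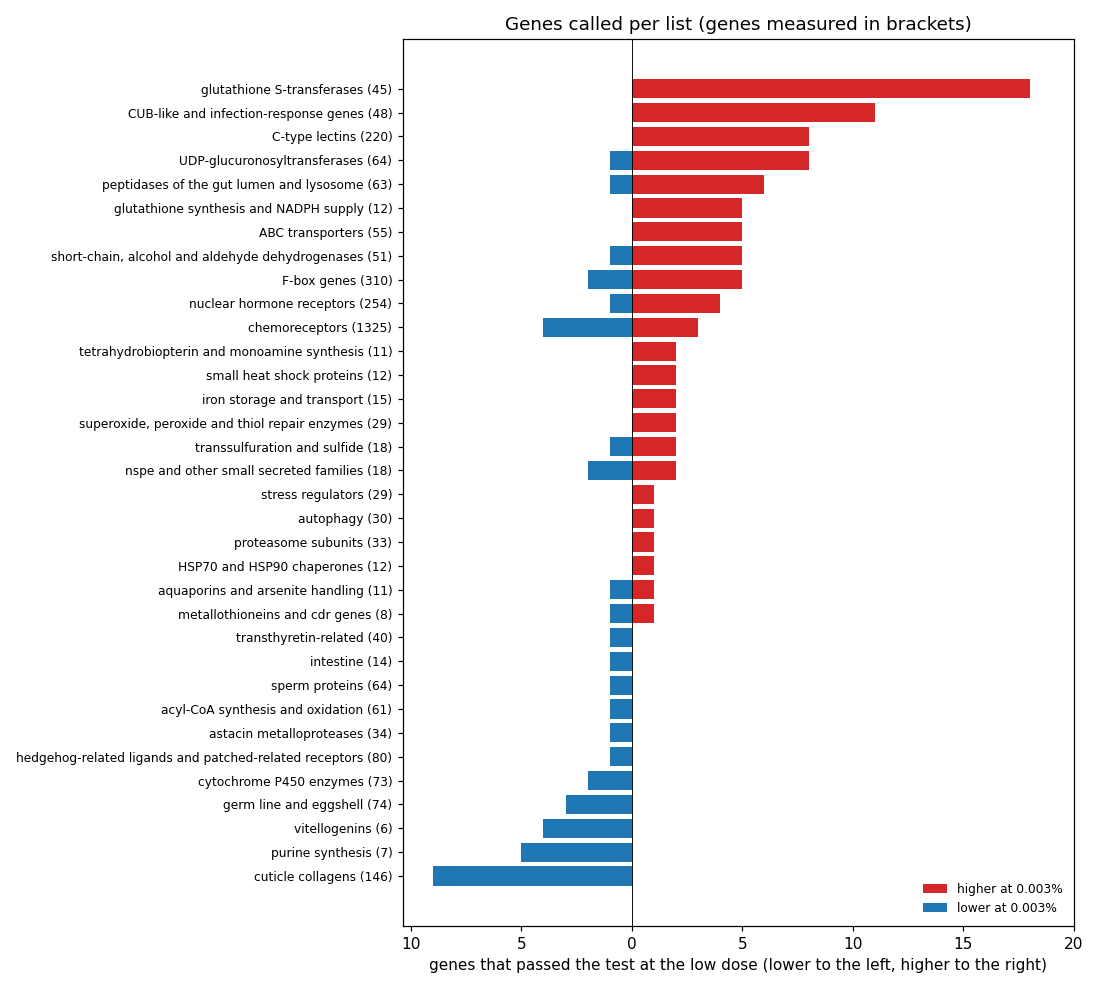
Number of genes that passed the test at the low dose (x axis, genes lower than control to the left of 0 and higher to the right) in each gene list with at least 1 such gene (y axis, number of measured genes in brackets). The glutathione S-transferases have the longest bar upwards with 18 genes and the cuticle collagens the longest bar downwards with 9.

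Housekeeping groups had no gene past the threshold, where 1.55% of all genes passed. Among 75 cytosolic ribosomal protein genes, 63 genes of the respiratory chain and ATP synthase, and 36 of glycolysis and the TCA cycle, 0 passed, and the medians were 0.03, 0.00 and -0.05. At an unadjusted p under 0.05 these lists had 0, 0 and 0 genes higher and 0, 2 and 0 lower. At 0.03% the same lists had 1, 37 and 18 down regulated genes (11% of all genes). Muscle genes (46), neuron genes (32) and neuropeptide genes (109) also gave 0 calls at the low dose (1.55% of all genes). At an unadjusted p under 0.05 they had 0, 0 and 5 higher and 1, 1 and 2 lower. In lists of these sizes, 0 calls do not set a group apart from all genes.

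The decreases included genes of adult and reproductive worms. All 6 measured vitellogenin genes, which encode yolk proteins made in the intestine of adult hermaphrodites, had lower means at the low dose, and 4 were down regulated, with a list median of -1.84. The level of vit-6 was 12.85, 13.18 and 12.99 in control, 11.28, 11.73 and 11.17 at the low dose and 12.07, 12.26 and 12.31 at 0.03% (log2 fold change -1.61, SE 0.18, adjusted p = 0.00473). The low dose arrays were the lowest of the 3 groups. The same order was seen for vit-2, at 11.01, 11.42 and 10.96, 8.72, 9.40 and 9.38 and 10.18, 10.85 and 10.41 (log2 fold change -1.96, SE 0.26, adjusted p = 0.0111). Only these 2 of the 6 genes passed as higher at 0.03% than at the low dose. For vit-1 the arrays at 0.03% overlapped the low dose arrays. The gene vit-4 fell from 11.11, 11.34 and 11.16 to 9.07, 9.29 and 9.06 and vit-1 from 9.997, 10.35 and 10.06 to 8.25, 8.39 and 8.01, while vit-5, chosen after its values were seen, just failed the test at 10.52, 11.19 and 10.79 and 9.06, 9.35 and 8.81 (adjusted p = 0.0551). The probesets of vit-4 and vit-5 are marked _x_at and that of vit-6 _s_at, so these related genes may share signal. The summed signal of the 6 genes on the linear scale was 16581 to 20862 on the control arrays, 5850 to 7440 on the low dose arrays and 8008 to 10493 on the arrays at 0.03%. Without 1 array the count of 4 was 3 to 5, and the call of vit-1 was lost in 7 of 9 fits, adjusted p up to 0.103.

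Cuticle collagen genes gave 0 increases and 9 decreases among 146 measured (7 and 19 at an unadjusted p under 0.05), with a list median of -0.03, so most of the family did not share the shift. The adult collagen gene col-19 fell from 12.37, 12.37 and 12.13 to 10.77, 10.87 and 10.86 (log2 fold change -1.46, SE 0.15, adjusted p = 0.00400) and was at 11.48, 11.96 and 11.55 at 0.03%. The largest decrease was that of col-8, from 11.25, 11.59 and 11.24 to 9.70, 9.48 and 9.96 (SE 0.20, adjusted p = 0.00902). The genes col-81, col-106, col-122, col-124, col-139 and col-140 fell by 0.73 to 1.13 on the log2 scale at the low dose and did not pass against control at 0.03%. For col-140 the levels were 13.57, 13.68 and 13.70, 12.62, 12.76 and 12.74 and 13.18, 13.54 and 13.29 in the order control, low dose and 0.03%, with the arrays at 0.03% between the other groups. Several of these collagens are measured by _s_at or _x_at probesets and are similar in sequence. The count of 9 was 2 without control replicate 2 or 3, 3 without low dose replicate 1 or 2, and 5 without low dose replicate 3, and col-19 and col-8 passed in all 9 fits without 1 array. The calls of col-81, col-106, col-122, col-124, col-139 and col-140 were lost in 5, 6, 5, 5, 6 and 3 of these fits. The collagen genes dpy-7 and rol-6, markers of the hypodermis, did not pass, with log2 fold changes of 0.16 and 0.05 (adjusted p = 0.842 and 0.896).

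Eggshell, germ line and sperm genes stood slightly lower at the low dose. Of 74 germ line and eggshell genes, 61 had a lower mean, 21 were lower at an unadjusted p under 0.05 (5.88% of all genes) and 3 were down regulated. The gene perm-2, needed for the permeability barrier of the eggshell, was at 11.46, 11.60 and 11.76 in control, 10.14, 10.18 and 10.39 at the low dose and 11.19, 11.39 and 10.75 at 0.03% (log2 fold change -1.37, SE 0.18, adjusted p = 0.0119). Its neighbour perm-4 moved from 12.80, 12.92 and 12.88 to 12.36, 12.27 and 12.24 and egg-2, a gene of the oocyte surface, from 11.19, 11.10 and 11.28 to 10.53, 10.60 and 10.68. Of 64 sperm genes, 54 had a lower mean, 29 were lower at an unadjusted p under 0.05, and spe-11, which encodes a sperm protein needed by the embryo, was down regulated (log2 fold change -0.68, SE 0.12, adjusted p = 0.0395). Related sperm genes may share probe signal, so the counts of lower sperm genes may not stand for separate genes. The list medians were -0.17 for germ line and eggshell and -0.27 for sperm genes, against -0.01 over all genes. The summed linear signal of the sperm list was 884090 to 896750 in control and 702880 to 749920 at the low dose, and that of the germ line and eggshell list 175470 to 187930 and 139570 to 149030. The calls of perm-4, egg-2 and spe-11 were lost in 9, 9 and 8 of the 9 fits without 1 array, and that of perm-2 in 4 of 9 fits, adjusted p up to 0.0576.

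Defining markers were read in the same way. Of the 6 markers of embryo and eggshell, 6 had a lower mean at the low dose and 2 passed. These 2 are perm-2 and perm-4, already counted above, so they are not a separate reading. Of the 6 germ line markers 6 were lower and 0 passed, and of the 5 measured sperm markers 4 were lower and 0 passed. At an unadjusted p under 0.05, 5 embryo and eggshell, 2 germ line and 4 sperm markers passed. The 4 lower sperm markers, msp-3, msp-31, gsp-3 and gsp-4, are on _x_at probesets and may share signal with related genes. The fifth, spe-9, on an _s_at probeset, had a higher mean (log2 fold change 0.19). The control means of the embryo, germ line and sperm markers ran from 7.84 for spe-9 to 15.77 for msp-31, in worms labelled as L3 larvae. The median over all genes was 8.52, and without detection calls a level alone does not show that a transcript was present. Markers of intestine (8), muscle (6), neuron (6) and pharynx (4) gave 0 calls (1.55% of all genes), with medians of -0.11, -0.03, 0.19 and 0.01. Of the 5 hypodermis markers col-19 alone passed. The part of a difference in the number of worms with yolk, eggs or sperm in these decreases was not tested.

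**Figure D4:**
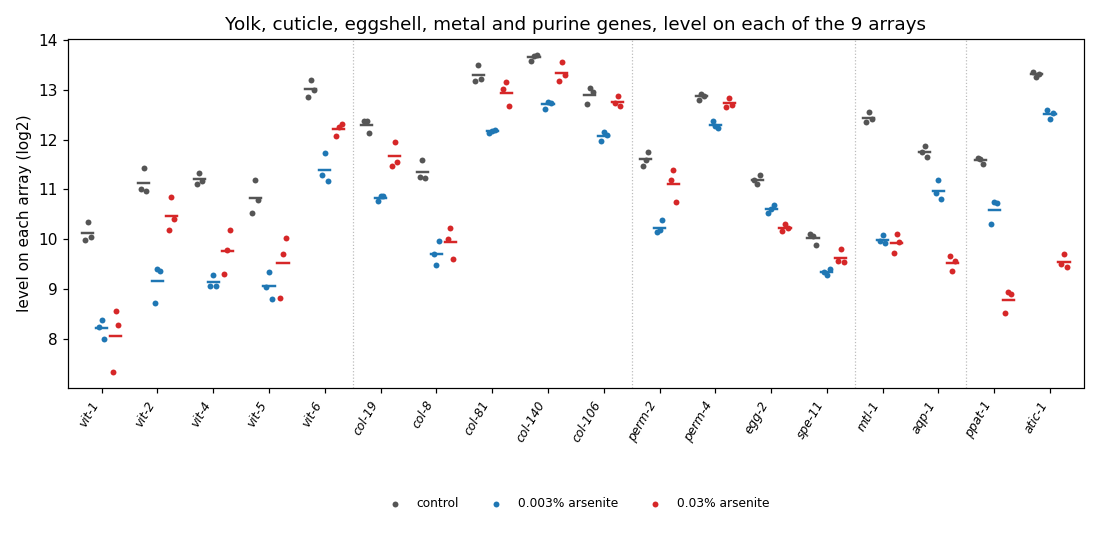
Level on each of the 9 arrays (log2, y axis) of yolk, collagen, eggshell and sperm, metal and water channel, and purine synthesis genes, the groups being parted by dotted lines, with points for arrays and short lines for group means. In vit-2, vit-6, col-19, col-140 and perm-2 the low dose arrays are the lowest, while in ppat-1 and atic-1 the arrays at 0.03% are.

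Outside these groups, the largest decreases began with T06D4.1, dim at 6.93, 6.31 and 6.72 in control and 3.55, 2.70 and 2.54 at the low dose (SE 0.60, adjusted p = 0.0274), whose call was lost in 7 of 9 fits, adjusted p up to 0.107. Among genes that were not dim, F49C12.7 fell most, from 12.71, 12.60 and 12.54 to 9.60, 10.001 and 9.38 (log2 fold change -2.96, SE 0.20, adjusted p = 3.79e-04), and it was lower again at 0.03%, at 7.62, 8.20 and 7.99. Purine synthesis formed a further group of decreases, in a list added after the values were seen. Of 7 genes measured, ppat-1, pfas-1, adsl-1, atic-1 and prps-1, which act on the route to inosine monophosphate or supply its ribose phosphate, were down regulated by 0.73 to 0.99 on the log2 scale, while adss-1 and gmps-1, which act after it, did not pass. The gene atic-1, for the enzyme of the last steps to inosine monophosphate, stood at 13.36, 13.25 and 13.31 in control, 12.59, 12.41 and 12.53 at the low dose and 9.50, 9.71 and 9.45 at 0.03% (SE 0.11, adjusted p = 0.0158 at the low dose). For ppat-1, the amidotransferase of the first committed step, the values were 11.63, 11.60 and 11.52, 10.32, 10.75 and 10.72 and 8.52, 8.95 and 8.91 (SE 0.17, adjusted p = 0.0363). The arrays thus stepped down with dose in both genes. The purine count of 5 was 0 without control replicate 1 or 2 or low dose replicate 3. It was 1 without control replicate 3 or low dose replicate 1 or 2. With any 1 array of 0.03% left out it was 4, and with control and low dose arrays alone it was 0. The calls of ppat-1, pfas-1, adsl-1, atic-1 and prps-1 were lost in 8, 4, 6, 5 and 7 of the 9 fits without 1 array. The glutamine synthetase genes gln-5 and gln-2, chosen after their values were seen, were down regulated (log2 fold change -0.90, SE 0.13, adjusted p = 0.0150, and log2 fold change -0.66, SE 0.11, adjusted p = 0.0383), and their calls were lost in 4 and 8 of the 9 fits (adjusted p up to 0.0668 and 0.145). Among 61 genes of acyl-CoA synthesis and oxidation, 1 passed, ech-9 of the enoyl-CoA hydratase type, at 10.11, 10.14 and 9.96 in control and 8.399, 9.22 and 8.91 at the low dose (SE 0.21, adjusted p = 0.0369), and 15 were lower and 2 higher at an unadjusted p under 0.05. The call of ech-9 was lost in 8 of 9 fits, adjusted p up to 0.133.

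How the genes of the low dose response stood at 0.03% was read from the same model. At 0.03%, 3418 genes (20%) passed against control. Both comparisons use the same control arrays, and the comparison of the doses, in which 2880 genes (16.8%) passed, 1256 higher (7.34%) and 1624 lower (9.49%) at 0.03%, uses the same low dose arrays, so these counts are not independent. Of the 179 genes up regulated at the low dose, 161 were up regulated at 0.03% (9% of all genes), 14 did not pass there and 4 were down regulated. Between the doses, 87 of the 179 were higher at 0.03%, 23 were lower and 69 did not pass. Of the 87 down regulated genes, 54 were down regulated at 0.03% (11% of all genes), 31 did not pass and 2 were up regulated. Between the doses, 34 of the 87 were higher at 0.03%, 23 lower, and 30 did not pass.

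Among the increases, the 3 low dose arrays lay above all control arrays and all arrays at 0.03% in 36 genes. The called genes were already apart from the control arrays, and the share of all genes with this order was not counted. The genes that rose at the low dose and fell at 0.03% were ZK742.3, pgp-1, cysl-2 and D1054.8. The level of ZK742.3 was 9.43, 9.72 and 9.37 in control, 11.15, 11.32 and 11.01 at the low dose and 8.75, 8.63 and 8.66 at 0.03%, its difference from control being 1.65 on the log2 scale at the low dose (adjusted p = 0.00108, SE 0.14) and -0.83 at 0.03% (adjusted p = 0.00469, SE 0.14). For pgp-1 the values were 8.68, 8.69 and 8.47, 9.75, 9.97 and 9.94 and 7.22, 7.95 and 7.96. The cysteine synthase like gene cysl-2, which takes part in cyanide and sulfide metabolism, had 13.45, 13.38 and 13.36, 14.18, 14.28 and 14.05 and 11.66, 11.88 and 12.08. In each of these genes the 3 groups were separate, the low dose being the highest and 0.03% the lowest. Between the doses they differed by -2.48, -2.18 and -2.30 on the log2 scale (adjusted p = 6.90e-05, 5.77e-04 and 8.10e-05). With 1 array left out, the low dose calls of pgp-1, cysl-2 and D1054.8 were lost in 6, 7 and 7 of 9 fits, and that of ZK742.3 in 0.

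A further 12 genes rose at the low dose, did not pass at 0.03% and were lower at 0.03% than at the low dose. K09H9.7, dim in control at 4.65, 4.47 and 4.98, reached 6.45, 7.65 and 7.05 at the low dose and was back at 4.64, 4.08 and 3.59 at 0.03%. F01D5.3 went from 9.95, 10.18 and 10.13 to 11.70, 12.02 and 11.64 and was 9.86, 10.01 and 10.03 at 0.03%, a range that overlapped control. Its neighbour F01D5.2, chosen after its values were seen, kept part of the increase, with 10.04, 10.18 and 9.73, 12.19, 12.35 and 12.36 and 11.14, 11.15 and 10.89. The neighbours F20G2.1 and F20G2.2 rose by 1.16 and 1.04 at the low dose (adjusted p = 0.00977 and 0.00174) and differed from control by -0.12 and 0.10 at 0.03%, which did not pass. C55A6.4 had 10.37, 10.59 and 10.58, 11.81, 11.84 and 11.67 and 10.86, 10.75 and 10.49. The others were fbxa-12, R102.4, mfsd-8.2, ZK228.3, pcp-3, cest-15 and nep-22. With 1 array left out, the low dose calls of K09H9.7, fbxa-12, mfsd-8.2, ZK228.3 and cest-15 were lost in 6, 5, 8, 2 and 5 of 9 fits, while those of F01D5.3, F20G2.1, F20G2.2, C55A6.4 and R102.4 were lost in 0. That of F20G2.1 was lost in a fit of the control and low dose arrays alone.

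Among the called genes, decreases that were larger at the low dose than at 0.03% outnumbered such increases. Between the doses, 34 of the 87 decreases were higher at 0.03% (7.34% of all genes). Of the 179 increases, 23 were lower there (9.49% of all genes). The called genes were picked on the low dose arrays, which the comparison of the doses uses again. A share above that of all genes can follow from this choice, so no conclusion is drawn from it. In 42 of the 87 down regulated genes, the 3 low dose arrays lay below all control arrays and all arrays at 0.03%. The share of all genes with this order was not counted, and called genes were already apart from control. Of the 31 genes that did not pass at 0.03%, 28 were higher at 0.03% than at the low dose. They included the collagens and perm genes above and several genes of other families. The ground-like gene grl-18, of the hedgehog-related families, was dim and stood at 5.61, 5.76 and 6.01 in control, 3.16, 2.97 and 3.31 at the low dose and 6.10, 6.43 and 6.35 at 0.03% (log2 fold change -2.65, SE 0.16, adjusted p = 1.95e-04, and 3.15 between the doses, SE 0.16, adjusted p = 4.88e-05). Its low dose arrays were at least 2.30 units below the other 6 arrays. Y105C5A.10, also dim, had 4.61, 6.08 and 5.35, 2.15, 3.18 and 2.29 and 5.83, 6.02 and 5.26, and the astacin protease gene nas-20 had 8.88, 9.31 and 9.19, 7.40, 7.82 and 7.58 and 8.60, 8.97 and 8.81 (log2 fold change -1.53, SE 0.17, adjusted p = 0.00623). The gene stha-3 was at 9.77, 10.004 and 9.92 in control and 7.91, 8.17 and 7.07 at the low dose, its values at 0.03% being 9.24, 10.06 and 9.83. Only F17E9.4 and ZK669.3 were down regulated at the low dose and up regulated at 0.03%. The level of ZK669.3 was 8.90, 9.24 and 9.07, 7.996, 8.31 and 8.03 and 10.48, 10.30 and 10.21, and that of F17E9.4 was 9.24, 9.37 and 9.09, 8.15, 8.12 and 8.37 and 9.98, 10.26 and 9.91, the groups being separate in both. The calls of Y105C5A.10, stha-3, F17E9.4 and ZK669.3 at the low dose were lost in 5, 4, 4 and 5 of 9 fits without 1 array, and those of grl-18 and nas-20 in 0.

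**Figure D5:**
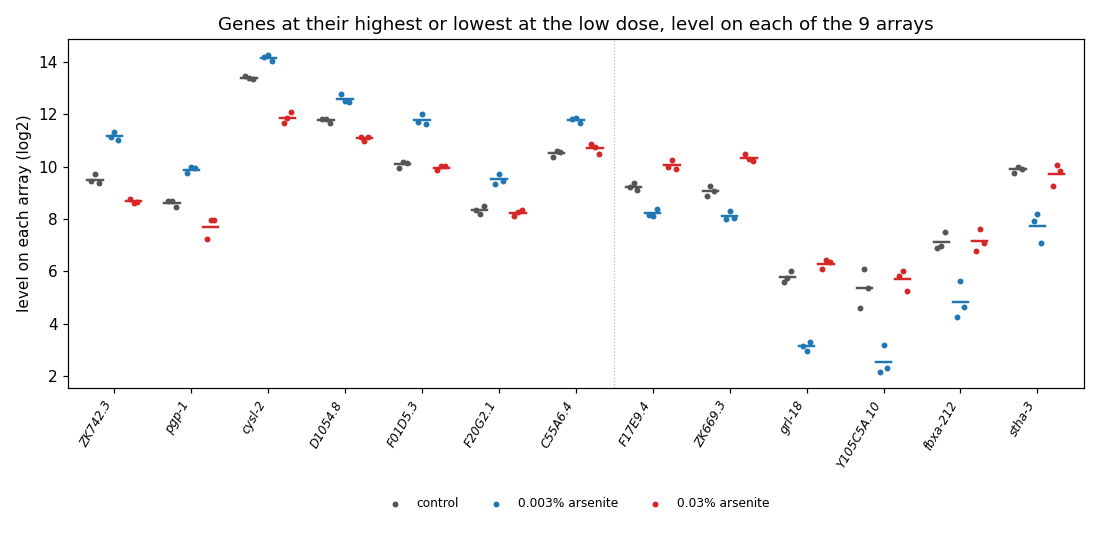
Level on each of the 9 arrays (log2, y axis) of 13 genes whose low dose arrays are the highest (left of the dotted line) or the lowest (right of it) of the 3 groups, with points for arrays and short lines for group means. The genes were chosen for this order, which ranges from 0.03% below control in pgp-1 and cysl-2 to 0.03% above control in ZK669.3.

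The genes furthest apart between the doses in the other direction were those that rose or fell at the low dose and moved further the same way at 0.03%. The small secreted protein gene nspe-4 rose from 7.65, 7.85 and 7.48 to 9.03, 9.23 and 8.75 at the low dose and to 12.67, 12.95 and 12.63 at 0.03%, a difference between the doses of 3.74 (SE 0.17, adjusted p = 3.68e-05). The galectin gene lec-7 was dim in control, at 4.42, 6.11 and 5.36, and stood at 7.41, 7.69 and 7.43 and then 10.79, 10.84 and 10.88. In both genes the 3 groups were separate. Of the decreases, rips-1 moved from 13.56, 13.57 and 13.52 to 12.21, 12.54 and 12.15 and to 7.92, 7.94 and 8.46, and pud-3, of a family of proteins more abundant in daf-2 mutants, from 13.46, 13.44 and 13.28 to 12.46, 12.29 and 12.31 and to 8.81, 8.63 and 8.87. At the low dose Y105C5B.7 was already down regulated (log2 fold change -1.75, SE 0.11, adjusted p = 2.77e-04), and it lay a further 3.25 lower at 0.03%. The low dose calls of lec-7 and rips-1 were lost in 7 and 5 of 9 fits without 1 array (adjusted p up to 0.128 and 0.0727).

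The called genes were also placed along the chromosomes, using the order of genes in the RefSeq table of assembly WBcel235. Of the 179 up regulated genes, 45 (25.1%) had an adjacent tested gene that was also up regulated, in 20 runs of 2 or 3. Of the 87 down regulated genes, 8 (9.20%) had an adjacent tested gene that also fell, in 4 runs of 2. For comparison, 1.05% of the 17118 tested genes rose and 0.508% fell. The share of tested genes lying next to a called gene was not counted. The runs of 3 were gst-14, gst-12 and gst-16 and F01D5.1, F01D5.2 and F01D5.3 on chromosome II, C17H12.6, H20E11.3 and H20E11.2 on chromosome IV, and C55A6.6, sdz-8 and C55A6.4 and cld-9, F20G2.1 and F20G2.2 on chromosome V. Pairs of unlike function were hsp-70 with cbl-1 on chromosome I and cysl-2 with dhs-8 on chromosome II. The down regulated runs were perm-4 with perm-2, pud-3 with pud-4, R08E5.1 with rips-1 and Y62H9A.4 with stha-3. Among the genes named only here, the calls of F01D5.1, cld-9, pud-4 and R08E5.1 were lost in 6, 2, 5 and 8 of the 9 fits without 1 array. The share of tested genes that rose was 1.46% on chromosome IV, 1.46% on V, 1.22% on II, 0.665% on III, 0.606% on I and 0.424% on X, while the share that fell was highest on X, at 0.763%, which carries vit-1, vit-2 and vit-4. Neighbours of one family can share probe signal, and these shares were not tested.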

How the data were processed

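RNA was measured on Affymetrix C. elegans arrays, 3 per group. The authors deposited 1 log2 value per probeset and array. The paper gives RMA (Partek Genomics Suite) as the method, but Partek 6.4 and MAS5 are listed by the submitters' processing notes, so background and normalization steps stay unknown, and no scaling was added. No detection calls were used, and the number of arrays limits the precision. Of the probesets, 77 controls, 895 without a gene and 887 with several genes were left out, and 20766 gave 17118 genes. Names came from the platform annotation and the RefSeq table (65 by symbol). Control, low dose and high dose arrays entered 1 model without covariates in limma 3.58.1 (lmFit, eBayes, 6 residual degrees of freedom, prior 1.45) in R 4.3.3, with Benjamini-Hochberg adjustment over all genes in each comparison. The thresholds, 1.2 fold and 0.05, follow the results of the paper (the methods give the 0.05 alone). The script was tested on simulated data.

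Genes named were the 15 largest increases and decreases with separate arrays, 4 called members per list and direction, the 10 largest dose differences each way, genes called in opposite directions or at the low dose alone with a dose difference, markers, and 18 stress genes. The members and the 53 lists were chosen with earlier results of these data known, and 4 lists were added later. Alternatives were no moderation, no or a 1.5 fold threshold, dim genes out, quantile or median scaling, probeset means, a variance trend, control and low dose alone, a replicate block, and each array out. Promoter sequences and motifs were not analysed here, and the gene aip-1 was not analysed here.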

Additional observations from a re-analysis of the deposited data

Results flagged for a closer look

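Probesets outside the gene table also responded to the low dose. Among 887 probesets assigned to several genes, 13 were higher and 6 lower at 0.003% than in control by limma with Benjamini-Hochberg adjustment over all probesets (2.14%), with the largest log2 difference at 4.84. Among 895 probesets with no assigned gene, 4 were higher and 3 lower (0.782%), with the largest difference at 5.99. These signals lie outside the comparison of genes, and no gene is named from them.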

How the results depend on the processing

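The counts depended most on how the spread was estimated and on how many dim genes were tested. Of 266 genes, 179 up and 87 down regulated, with 167 that also differed between the doses, the counts became 545, 316, 229 and 341 with a variance trend and robust estimation, and 533, 307, 226 and 330 without the dimmer 50% of genes. Without the dimmest 25%, the down regulated genes were 135. With control and low dose arrays alone there were 139, 102 up and 37 down regulated. In that fit 97 of the 179 increases and 32 of the 87 decreases passed. Calls that held in each fit without 1 array but not there included mrp-7, gsr-1, gsto-2, sqrd-1, nspe-4, asp-14 and F20G2.1. The purine decreases and the nuclear hormone receptor increases were 0 in that fit. Leaving out 1 array gave 170 to 223 genes, 122 to 154 up and 34 to 75 down regulated, and 104 to 126 that also differed between the doses. Leaving out arrays of either group also leaves fewer degrees of freedom. Quantile normalization, median centring, probeset means, no moderation, no fold threshold and 1.5 fold kept each of these counts within 1.5 times. Over the 20 alternatives, 93 of the 179 increases and 17 of the 87 decreases passed in every fit that held the gene. Of the 148 genes named by rule that passed, 61 passed in each alternative and 0 reversed.

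Replicate numbers did not pair the samples: residuals of arrays with the same number correlated at -0.03 to 0.03 across genes. With the replicate block, 160 genes passed, 120 up and 40 down regulated, and 98 also differed between the doses. The planned count of promoter motifs was not run. Levels below 6.26 limit 15 of the increases and 15 of the decreases, which are dim.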
